A study of Mus musculus with 6 samples.

Results

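The neurotrophins, GDNF and their receptors were examined as a group of 8 genes: the ligands Bdnf, Ntf3 and Gdnf and the receptors Ntrk2, Ntrk3, Ngfr, Gfra1 and Ret. They were chosen by name, as the rows of the authors' deposited table whose gene symbol equals one of these names. All 8 were found, each with 1 record, among 21540 records in all. The table compares nucleus accumbens tissue of C57BL/6 mice injected intraperitoneally once a day for 7 days with cocaine at 20 mg/kg with that of mice given saline, at a time point 4 h into withdrawal, by RNA sequencing of 3 libraries per group. The protocol text of the saline libraries names cocaine, so these were grouped by their treatment label, which reads saline. Whether a library held 1 mouse or pooled tissue is not in the labels, so the spread that the deposited p-values measure may be technical.

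Neurotrophins are secreted growth factors that keep neurons alive and tune their synapses. BDNF signals through the receptor tyrosine kinase TrkB, encoded by Ntrk2, and NT-3, encoded by Ntf3, through TrkC, encoded by Ntrk3, while the p75 receptor, encoded by Ngfr, binds all mature neurotrophins and, together with sortilin, their uncleaved precursors. GDNF binds the surface-anchored coreceptor GFRα1, encoded by Gfra1, and the pair activates the kinase Ret. In the striatum BDNF protein is known to arrive largely along axons from cortex and midbrain, and GDNF is known as a survival factor of the dopamine neurons that innervate the region, which express Ret in their cell bodies outside it. TrkB and TrkC also exist as truncated forms without a kinase domain, and astrocytes are known to make mainly truncated TrkB.

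The authors' deposited table holds 1 value per group and gene, treated here as FPKM (fragments scaled to transcript length and to library size), with no value per library and no read depth, so no SD stands beside a value. Wherever a pair of values is given below, the saline group comes first and the cocaine group second. Of the 21540 records, 14959 were marked as tested, and 184 of these passed the deposited q (the p-value adjusted for multiple testing) at 0.05. The defining genes of medium spiny neurons, the principal cells of the tissue, were all present, from 64.4 FPKM for Drd1a to 1514 FPKM for Penk as the mean of both groups, and 0 of 9 passed. The summed level of 6 endothelial markers was 30.6 and 24.1 FPKM, with all 6 lower and Cldn5 past the threshold. That of 7 choroid plexus markers was 9.03 and 19.4 FPKM. Nearly all of the difference was Ttr, which stood at 0.668 and 10.8 FPKM and passed the threshold. Clic6, at 6.42 and 5.65 FPKM, and Kl, at 1.46 and 1.42 FPKM, were lower in the cocaine group and did not pass. Kcnj13, Folr1, Kcne2 and Aqp1 stayed under 1 FPKM in both groups. The part of the endothelial and choroid plexus markers in the values below was not tested. In bulk tissue, fewer cells of a type and less RNA per cell cannot be told apart.

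After cocaine no member passed the deposited threshold. The count was 0 of 7 tested members, beside 1.23% of all tested records (0.521% higher and 0.709% lower in the cocaine group). At a deposited q under 0.1 the count was 1, beside 1.47%, and at an unadjusted p under 0.05 it was 2, beside 5.76%. The TrkB gene Ntrk2 came nearest, 4.88% higher in the cocaine group at a deposited q of 0.0589. Ntrk3 was 10.1% higher, while Gfra1 and Ret differed by less than 1% between the groups. All 7 tested members lay within 0.2 of 0 on the log2 scale, 5 above and 2 below, with a median of 0.01, beside a median of -0.02 over 12976 tested records of at least 1 FPKM.

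Levels differed far more among the 8 genes than between the treatments. FPKM is a level per transcript length, so genes can be compared on it roughly. The unit was inferred, and the annotation that set the lengths is not given. In the authors' deposited table Ntrk2 stood highest, at 75.3 and 79.0 FPKM, and its mean ranked 1043 among the 21540 records, the top 4.84%. Gfra1 followed at 27.7 and 27.9 FPKM and Ntrk3 at 22.1 and 24.3 FPKM. The other 5 members lay near or below 1 FPKM. Ngfr was at 1.08 and 0.965 FPKM, Gdnf at 0.815 and 0.841, Ret at 0.541 in both groups, and Bdnf at 0.415 and 0.388. Ntf3, at 0.0451 and 0.0543 FPKM, was marked as not tested by the authors. The order of the 8 genes was the same in both groups.

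**Figure D1:**
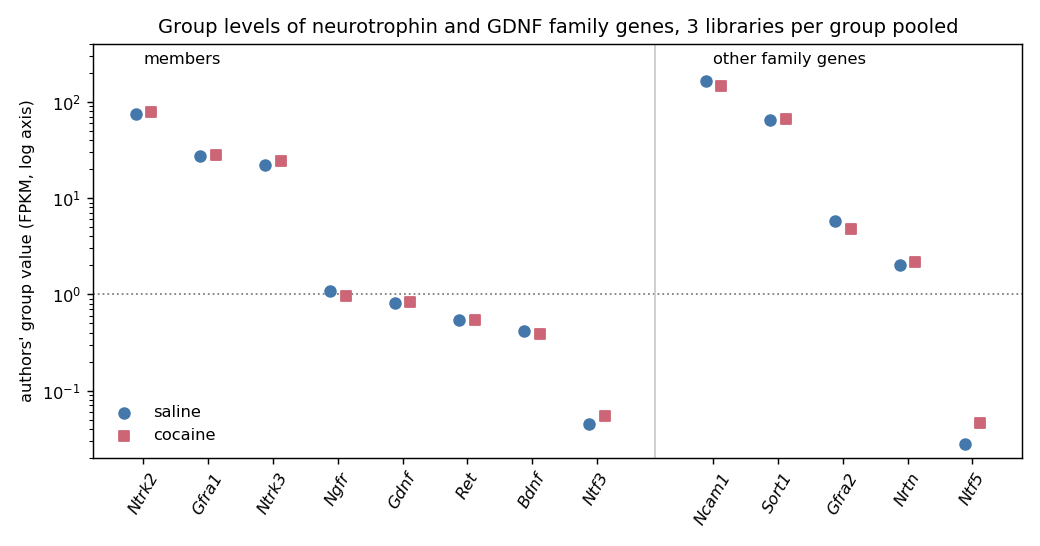
Authors' group values (FPKM, log axis) of the 8 members, left, and of 5 other genes of the same families, right, in the saline (circles) and cocaine (squares) groups. Each point is 1 deposited value over 3 libraries, the dotted line marks 1 FPKM, and Ntrk2, Gfra1 and Ntrk3 stand apart above the other 5 members in both groups.

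The gap within a ligand and receptor pair was wide. Ntrk2 was 182-fold above Bdnf in the saline group and 203-fold in the cocaine group, and Gfra1 was 34.0-fold and 33.2-fold above Gdnf. Among the receptors, Gfra1 exceeded its signalling partner Ret 51.2-fold and 51.6-fold, and Ntrk2 exceeded Ngfr 69.9-fold and 81.8-fold. Gdnf was 1.96-fold and 2.17-fold above Bdnf. Neighbours in the order lay closer: Gfra1 and Ntrk3 differed 1.26-fold in the saline group and 1.15-fold in the cocaine group, Ngfr and Gdnf 1.32-fold and 1.15-fold, and Ret and Bdnf 1.30-fold and 1.39-fold. Without values per library, whether such neighbours differ beyond their spread could not be tested.

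Ntrk2 had the smallest p of the members. The authors' deposited log2 fold change, cocaine over saline, was 0.07, with p = 0.000625 by their own test, which ranked 196 among the 14959 tested records. A standard error was derived by taking that p as a two-sided normal test, an assumption that the sources used here do not settle. It was 0.0201 on the log2 scale, which gives a 95% interval from 0.03 to 0.11, or a level 1.02-fold to 1.08-fold that of the saline group. The median derived standard error of the 1888 other tested records within 2-fold of its level was 0.0653, and only 2.38% of them had a smaller one. Of those records, 90% had log2 fold changes between -0.13 and 0.11, so the size of the Ntrk2 difference lay inside their range, while its p rests on the small error.

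Whether Ntrk2 passes depends on how the deposited p-values are adjusted. The deposited q of 0.0589 misses the threshold. The Benjamini-Hochberg adjustment recomputed over the 14959 tested records gave 0.0475, and over tested records of at least 1 FPKM 0.0412, and Ntrk2 passed under both. The deposited q is not the one that the table's own p-values give: over 204 records with a deposited q above 0 and under 0.1 it stood at a median of 1.21 times the recomputed one, from 0.925 to 1.25 times. The set of tests over which the authors adjusted is not given in the sources used here.

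The Ntrk2 record does not separate the forms of TrkB. GENCODE M21, an annotation of a later build than the authors', lists 7 Ntrk2 transcripts with a complete coding region, for proteins of 466 to 821 residues, and the deposited value is 1 number for the gene. Astrocyte markers beside it gave 0 calls among 6 in the authors' deposited table, 5 of them above 0, and their log2 fold changes had a median of 0.09. The glutamate transporter gene Slc1a2 was at 377 and 453 FPKM (p = 0.0345 by the authors' test) and the water channel gene Aqp4 at 12.5 and 14.3 FPKM (p = 0.0451), while Gfap, an intermediate filament gene, was at 12.1 and 10.8 FPKM (p = 0.0166). The summed level of the 6 was 612 and 692 FPKM, nearly all of the difference being Slc1a2. Slc1a3 was at 171 FPKM in both groups, Aldh1l1 at 17.6 and 17.9 FPKM and Gjb6 at 22.3 and 24.9 FPKM. Their part in the Ntrk2 value was not tested.

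Ntrk3, the TrkC gene, had a larger log2 fold change than Ntrk2, 0.14, and a weaker p of 0.0436 by the authors' test (deposited q = 0.99998; recomputed over all tested records, 0.803). Its derived standard error was 0.0687, with a 95% interval from 0.004 to 0.27. It did not pass under any adjustment. Its longest annotated transcript, of 19703 bases with a GC content of 43.6%, is long and GC-poor beside the medians of 3413 bases and 49.9% over genes of at least 1 FPKM. The 196 genes of like GC content and length had a median log2 fold change of 0.05, and Ntrk3 stood at 0.09 once that was subtracted, a step called the correction for GC content and length below. For Ntrk2 (8744 bases, 48.6%) the same step moved the value from 0.07 to 0.05.

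**Figure D2:**
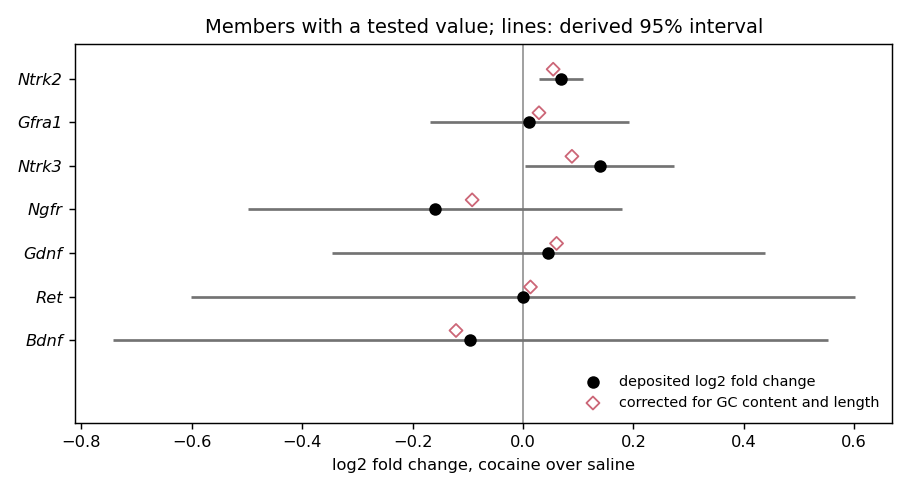
Deposited log2 fold changes, cocaine over saline (filled circles), of the 7 members with a tested value, ordered by level. Lines are 95% intervals derived from the deposited p-value as a two-sided normal test, and diamonds are the values corrected for GC content and length. Only the lines of Ntrk2 and Ntrk3 lie above 0, before adjustment for the number of genes tested.

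Ngfr, the p75 gene, was the member with the lowest log2 fold change, -0.16 (p = 0.357 in the authors' deposited table). Its derived 95% interval ran from -0.50 to 0.18, and the value became -0.09 once corrected for GC content and length. In the basal forebrain p75 is known as a marker of cholinergic neurons, and 4 cholinergic markers gave 0 calls in the authors' deposited table, with a median of 0.01. Chat, which makes acetylcholine, was at 5.56 and 5.28 FPKM, and the choline transporter gene Slc5a7 at 6.16 and 6.71 FPKM. The tissue here was nucleus accumbens, and whether its cells with Ngfr were cholinergic was not tested. Nor was the part of these markers in the Ngfr value.

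Gfra1 and Ret had log2 fold changes near 0, known with unequal precision. Gfra1 had a log2 fold change of 0.01 (p = 0.899 by the authors' test) with a derived 95% interval from -0.17 to 0.19, a level between 0.890-fold and 1.14-fold that of saline. The interval for Ret was wider, from -0.60 to 0.60 around a log2 fold change of 0.00018 (p = 0.9995 in the authors' deposited table), which spans levels 0.659-fold to 1.52-fold that of saline. The ligand Gdnf stood at 0.05 (p = 0.819 by the authors' test), with an interval from -0.35 to 0.44.

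Bdnf, a gene that neurons transcribe in response to activity, stood in the cocaine group at 0.936-fold its saline level, a log2 fold change of -0.10 (p = 0.773 by the authors' test). The derived interval from -0.74 to 0.55 covers levels from 0.597-fold to 1.47-fold that of saline. GENCODE M21 lists 11 Bdnf transcripts with a complete coding region, which start at alternative first exons and encode proteins of 249 to 289 residues, and the table does not separate them. Cortical neurons are known to make much more Bdnf mRNA than striatal neurons. The summed level of 6 cortical neuron markers was 67.5 and 62.0 FPKM, 5 of the 6 lay below 0, and the vesicular glutamate transporter gene Slc17a7 passed the authors' test. Their part in the Bdnf value was not tested. For Ntf3, which the authors did not test, a deposited log2 fold change of 0.27 stands on values of 0.0451 and 0.0543 FPKM and became 0.01 with a pseudocount of 1, so no difference was resolvable.

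Precision differed sharply with level. The median derived standard error of other tested records within 2-fold of the gene's mean level was 0.497 around Bdnf and 0.0653 around Ntrk2. The counts and sizes of passing records below also depend on how many such genes changed, so they do not set a resolvable size. Among the 1714 other tested records within 2-fold of Bdnf's mean level, 1 passed the deposited threshold, the thrombospondin gene Thbs4, with an absolute log2 fold change of 1.51. Around Ret 1 of 1998 passed and around Gdnf 1 of 2154, in each case Thbs4 again, which was named after its value was seen. Around Ngfr 3 of 2249 passed, Thbs4, Prss12 and Ptprb, likewise named after their values were seen, the smallest absolute change being 0.36. Near the abundant receptors smaller differences passed: 62 of 4529 records around Ntrk3, down to 0.09, 66 of 4128 around Gfra1, down to 0.08, and 54 of 1888 around Ntrk2, down to 0.05. For no member does a missed threshold show that the groups had equal levels. Among the tested members the derived intervals were widest for Bdnf, Ret and Gdnf, below 1 FPKM in both groups. Ntf3, also below 1 FPKM, was not tested.

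**Figure D3:**
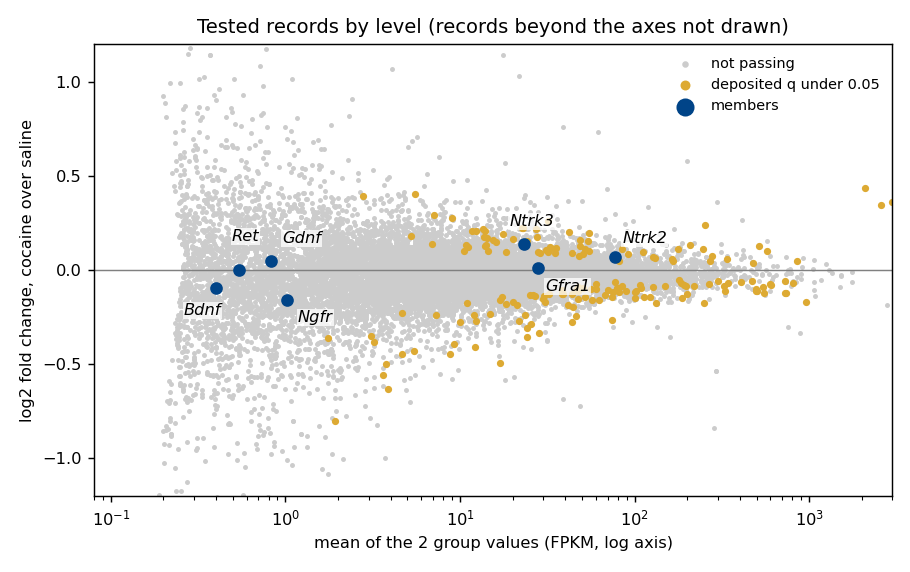
Deposited log2 fold change, cocaine over saline, of tested records against the mean of both group values (FPKM, log axis). Grey points did not pass, gold points passed the deposited q at 0.05 and blue points are the 7 tested members, all within 0.2 of 0. Passing records are sparse below about 1 FPKM, where Bdnf, Ret and Gdnf lie.

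The remaining family members gave no calls in the authors' deposited table. Ntf5, which encodes neurotrophin-4, the other TrkB ligand, was marked as not tested at 0.0279 and 0.0456 FPKM. Sort1, the gene of sortilin, was at 64.8 and 67.0 FPKM (p = 0.273 by the authors' test). Over 8 neurotrophin receptor and sortilin-family genes 0 passed, 4 lay above 0 and 4 below, with a median of 0.01.

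Among the GDNF family ligands 0 of 4 passed. Nrtn, which encodes neurturin, was the highest of them at 2.01 and 2.18 FPKM (p = 0.628), and Artn, which encodes artemin, had the smallest p (0.359 and 0.279 FPKM, p = 0.498 by the authors' test). Among GDNF family receptors 0 of 6 tested genes passed. Gfra2, the neurturin coreceptor, stood in the authors' deposited table at 5.75 and 4.82 FPKM, 0.838-fold (log2 fold change -0.25, p = 0.0590), with a derived 95% interval from -0.52 to 0.01. Ncam1, an adhesion molecule that can also serve as a GDNF receptor, stood at 165 and 147 FPKM, 0.890-fold (p = 0.112 by the authors' test). Gfra1 was 4.82-fold above Gfra2 in the saline group and 5.80-fold in the cocaine group. Gfra4, another gene of the coreceptor family, stood above Gfra1, at 43.6 and 40.4 FPKM (p = 0.0942 by the authors' test).

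Of the 126 tested genes on 10 pathway lists, the members included, 4 passed the deposited threshold, 1 higher and 3 lower in the cocaine group. That is 3.17%, beside 1.23% over all tested records (0.521% higher, 0.709% lower), and 9.52% had an unadjusted p under 0.05, beside 5.76%. Their median log2 fold change was -0.04. The share passing also depended on level, so the 2 sets are not alike. Among other tested records within 2-fold of the gene's level, 17.3% passed around Cpe and 3.31% around Vgf. Around Ptprs it was 3.22% and around Shc3 1.60%. None of these shares was tested, and the lists were written with earlier results of these data known.

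The gene that rose was Shc3, an adaptor that docks on activated Trk receptors in neurons, from 25.3 to 29.4 FPKM in the authors' deposited table (log2 fold change 0.22, q = 0.0448). Once corrected for GC content and length, it stood at 0.29. It was 1 of 42 adaptor and kinase genes downstream of Trk and Ret, the other 41 not passing, and the list median was -0.02. The other adaptors of its family did not pass: Shc1 was at 3.18 and 2.84 FPKM, Shc2 at 15.6 and 15.0, and Shc4 at 8.03 and 7.42. Braf, a kinase upstream of ERK, had the largest log2 fold change of the list, 0.76 (28.8 and 48.7 FPKM), but a p of 0.538 by the authors' test and a derived standard error of 1.23. The insulin receptor substrate gene Irs2 (12.6 and 11.5 FPKM, p = 0.00669) had an unadjusted p under 0.05 by the authors' test but did not pass.

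Ptprs fell among 13 negative regulators of Trk and Ret, from 105 to 97.6 FPKM in the authors' deposited table (log2 fold change -0.11, q = 0.0335). It encodes a receptor tyrosine phosphatase of synapses and growth cones. Once corrected for GC content and length, its value was -0.07. The other 12 did not pass, 11 of the 13 lay below 0 and the median was -0.07, or -0.04 once corrected. Over all tested records of at least 1 FPKM, 40.8% lay above 0. Spry2, an inhibitor of receptor tyrosine kinase signalling, was at 27.3 and 25.1 FPKM (p = 0.00759 by the authors' test).

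Cpe fell among 12 tested genes for the processing and release of proneurotrophins, from 738 to 710 FPKM in the authors' deposited table (log2 fold change -0.06, q = 5.09e-08). It encodes carboxypeptidase E, which trims peptide precursors and is known as a sorting receptor for proBDNF. Once corrected for GC content and length, the value was -0.03. The other 11 did not pass, and the median was -0.05. Pcsk1, a prohormone convertase, was at 3.35 and 4.18 FPKM (p = 0.00402 by the authors' test), and Furin, another protease that cleaves proneurotrophins, at 7.83 and 7.16 FPKM (p = 0.362).

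Vgf fell among 16 tested genes of other neurotrophic factors and their receptors, from 110 to 104 FPKM (q = 0.0121). It encodes a secreted peptide precursor that BDNF is known to induce in cultured neurons. The authors deposited a log2 fold change of -0.08 for it, which became -0.02 once corrected for GC content and length. The other 15 did not pass, among them Ptn at 194 FPKM in both groups, Cntfr at 50.8 and 47.6 FPKM and Manf at 39.6 and 41.4 FPKM.

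The p75 partners and the regulators of Bdnf transcription gave 0 calls in the authors' deposited table, among 12 and 11 tested genes. Rtn4r, the Nogo receptor that pairs with p75, had values of 3.66 and 2.70 FPKM (log2 fold change -0.44 by the authors' test, p = 0.00134, q = 0.108), the lowest value of its list, whose median was -0.05. Among the Bdnf regulators the smallest p was that of Crtc1, a CREB coactivator, at 54.8 and 58.3 FPKM (p = 0.0715 by the authors' test), and the median was 0.02. Creb1 itself was marked as failed. Npas4, an activity-induced factor that acts on Bdnf promoters, was at 3.65 and 3.82 FPKM (p = 0.504 by the authors' test).

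**Figure D4:**
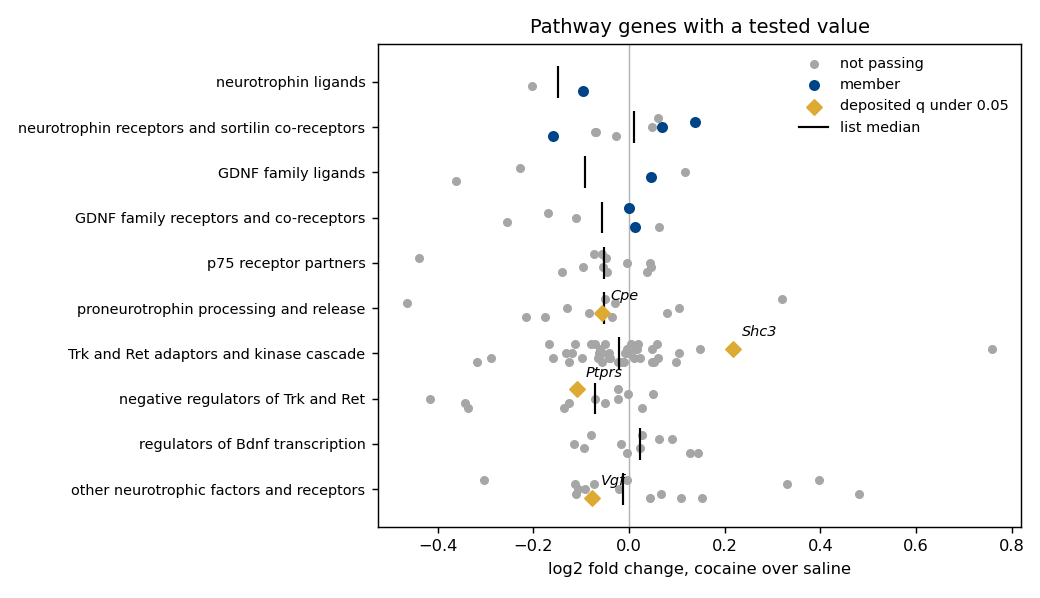
Deposited log2 fold changes, cocaine over saline, of the tested genes on 10 pathway lists. Each point is 1 gene, blue points are members, gold diamonds passed the deposited q at 0.05 and black bars are list medians. The 4 genes that passed, Shc3, Ptprs, Cpe and Vgf, lie on 4 different lists and none is a member.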

How the data were processed

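RNA isolation and library preparation used Qiagen and Illumina kits, per the labels' protocols. Reads were processed with TopHat2 2.0.6 and Cufflinks 2.0.2 on build NCBIM37, per the submitters' processing notes. Their settings, the gene annotation and the depth are not given in these sources. The authors' group values were read as FPKM, from the layout of the deposited table. The log2 fold change, p-value and q-value were deposited by the authors and copied; ratios of the group values, on a log2 scale, differed from it by at most 1.3e-05. A record passed at the deposited q under 0.05.

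Computed here (Python 3.11.15, pandas 2.3.3, scipy 1.17.1): standard errors derived from the deposited log2 fold change and p, tested on simulated data; Benjamini-Hochberg adjustments; ratios with pseudocounts of 1 and 0.1; and subtraction of the median log2 fold change in 10 GC by 10 length cells, set on 12634 genes (97.4% of those of at least 1 FPKM) from the longest GENCODE M21 transcript. No coordinates are printed, since that annotation is of a later build. Where a symbol had several records, the one with the highest mean was used.

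The members and lists were chosen with earlier results of these data known. Named were all members, 5 companion genes of the same families (others are not reported here), and per list each gene past the threshold or else the one with the smallest p; other list genes were named after their values were seen. No test per library could be run, since the table has only group values.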

Additional observations from a re-analysis of the deposited data

How the results depend on the processing

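The count of members past the threshold was 0 with the deposited q and 1 with the adjustment recomputed over all tested records, with that over tested records of at least 1 FPKM, and at a deposited q under 0.1, in each case Ntrk2. It was 2 at an unadjusted p under 0.05. Of the 126 pathway genes 4 passed with the deposited q, 5 under each of the first 3 alternatives and 12 at the unadjusted p. Removal of the GC and length trend moved the values of those 4 by more than their derived standard errors. Shc3 went from 0.22 to 0.29 and Ptprs from -0.11 to -0.07, Cpe from -0.06 to -0.03 and Vgf from -0.08 to -0.02. Median centring also moved Cpe, to -0.04, and Vgf, to -0.06, by more than that error. Pseudocounts of 1 and 0.1, median centring and removal of the GC and length trend changed the sign of 0 of 32 member values. A move of less than the derived standard error was seen for 31 of them, and the other was Ntrk2, at 0.09 when centred. That error was wide for members of low level, at 1.71 for Ntf3 and 0.331 for Bdnf. With a pseudocount of 1 their values went from 0.27 to 0.01 and from -0.10 to -0.03. Trend removal and a pseudocount of 1 changed the sign of 0 of 10 list medians, and centring that of 2: the Trk and Ret adaptors went from -0.02 to 0.00055 and the other neurotrophic factors from -0.01 to 0.01. No paired analysis was possible because the table holds 1 value per group and none per library, and leaving out libraries was not run for the same reason. Depth is unknown, so no detection floor was computed, and members under 1 FPKM are the least precise.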
